A study of Mus musculus with 6 samples.

Results

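The genes described here encode the factors that run translation and the enzymes that charge transfer RNAs. They were taken by symbol from the deposited table of raw counts: names beginning Eif1 to Eif6, Eef1 or Eef2, the release factor genes Etf1 and Gspt1, and the aminoacyl-tRNA synthetase genes, without the kinase genes Eif2ak2 and Eif2ak3. The rule found 97 of the 15861 genes of the table. Of these, 60 are counted as translation factors, which takes in some genes for kinases, methyltransferases and repressors that act on the factors. A further 20 are synthetases whose symbol does not end in 2, called cytosolic here. The other 17 are synthetases whose symbol ends in 2, the usual mark of the mitochondrial enzyme. All 97 passed the filter on low counts. RNA came from mouse germinal centre B cells sorted as B220+ GL7+ FAS+, with 1 mouse per library. The WT group was 3 C57BL/6 mice carrying floxed Lsd1 (Lsd1 f/f) and no Cre. The KO group was 3 mice with the same Lsd1 f/f alleles and 1 Cgamma-cre allele (Cgamma-cre+/-), a Cre named after an immunoglobulin heavy chain constant gene. The series design calls them littermates. Neither age nor immunisation is stated in the labels. Floxed alleles are shared by both groups and Cre is not, so any effect of Cre cannot be told apart from that of the deletion.

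Translation begins when eIF2 brings the initiator transfer RNA to the small ribosomal subunit and the eIF4 proteins bring in the capped messenger RNA, on a platform made by the many subunits of eIF3. The guanine nucleotide exchange factor eIF2B recharges eIF2, and kinases that phosphorylate eIF2 lower its activity. In elongation eEF1A delivers charged transfer RNAs and eEF2 moves the ribosome along, and the products of Etf1 and Gspt1 release the finished chain. Each synthetase joins 1 kind of amino acid to its transfer RNAs, except the product of Eprs, which serves glutamate and proline. Germinal centre B cells divide fast and make large amounts of protein. Lsd1, now Kdm1a, encodes a histone lysine demethylase.

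The WT libraries held 3390805 to 5524852 counts and the KO libraries 12325300 to 14327654, so depth cannot be told apart from genotype. Kdm1a was read at 134, 85.2 and 92.6 CPM in WT and 81.9, 33 and 21.8 CPM in KO. CPM is the share of a library's counts scaled to a common total, here after TMM adjustment for composition. The library labelled KO 1 was thus close to the lowest WT library. Kdm1a did not pass over all genes (log2 fold change -1.19, SE 0.50, edgeR adjusted p = 0.393), but did without KO 1 (-1.93, adjusted p = 0.0169). Statements on the KO group below include the library labelled KO 1 unless they say otherwise. The B cell genes Cd79a, Cd79b and Ms4a1 and the germinal centre genes Bcl6, Fas and S1pr2 were read in every library at over 100 CPM of the library total, whereas Mef2b was at 0 in WT 2 and WT 3 and under 1 CPM in the other 4. As a share of the library total, the summed level of 20 macrophage and dendritic cell markers was 704, 2285 and 3635 CPM in WT and 841, 701 and 5088 CPM in KO, so it was highest in WT 3 and KO 3. Of 12 T cell markers 10 were in the table, with sums of 319 to 423 CPM, most of it Lck and Cd2. Cd8a was at 0 in all 3 WT libraries and KO 1, and Cd3d was at 0 in WT 1 and WT 3. The 11 plasma cell markers gave 2411, 3520.3 and 3003 CPM in WT and 2898, 3245 and 3537 CPM in KO on that scale, most of it Jchain and Mzb1. Of the 10 tested, 8 were above 0 (median 0.25) and 0 passed, with median log2 deviations from the WT mean of -0.13, -0.097 and 0.042 in WT and 0.50, 0.19 and 0.32 in KO. Prdm1, the master regulator of plasma cells, stood at 4.23, 2.90 and 1.47 CPM for WT and at 28.7, 3.14 and 15.2 for KO on the unadjusted scale, highest in KO 1 and KO 3. In bulk RNA, fewer cells of a kind and less RNA per cell cannot be told apart.

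No member passed the test of KO against WT (edgeR quasi-likelihood test, Benjamini-Hochberg adjustment over all 10926 genes tested, threshold 0.05). Over all genes 0.0824% passed, or 9 genes (0.0732% higher and 0.00915% lower), so 0 of 97 is near the background. The smallest adjusted p of a member was 0.272, for Farsa. No member passed with DESeq2 or limma-voom either, nor in any of the 16 alternatives. At an unadjusted p under 0.05 there were 2 members higher in KO and 11 lower (edgeR), against 7.1% and 5.5% of all genes. With DESeq2 these counts were 2 and 16, with limma-voom 2 and 12, and with scaling by library size alone 6 and 6. They moved with single libraries: 0 higher and 2 lower were left without KO 1 or without WT 3, 1 and 4 without KO 3, 4 and 16 without KO 2, and 8 and 18 without WT 2. Log2 fold changes of the members ran from -0.77 to 0.78. The typical standard error was 0.23 for a factor, 0.21 for a cytosolic synthetase and 0.26 for a mitochondrial one (medians). Of the 97 members, 47 lay within 1 standard error of 0 and 80 within 2.

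As a set the factors lay slightly below 0. Of the 60, 41 had a log2 fold change below 0, with a median of -0.12. Of the 20 cytosolic synthetases 13 were below 0 (median -0.17), and of the 17 mitochondrial ones 8 were (median 0.00099). Over all genes tested, 48.7% were below 0 and 51.3% above, with a median of 0.013. For the factors the median was -0.23 without WT 1 and -0.052 without WT 2, and for the cytosolic synthetases it was -0.11 without KO 3. Scaling by library size alone moved the median of all genes to 0.134. On that scale 33 of 60 factors were below 0 and their median was -0.013, which is still lower than that of all genes. In 14 of the 97 members every KO library lay below every WT library, and in 7 every KO library lay above. The same held for 7.95% and 10% of all genes. In the plot of log2 fold changes, the genes of eIF3 and of the eEF1 and eEF2 group sit lowest.

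**Figure D1:**
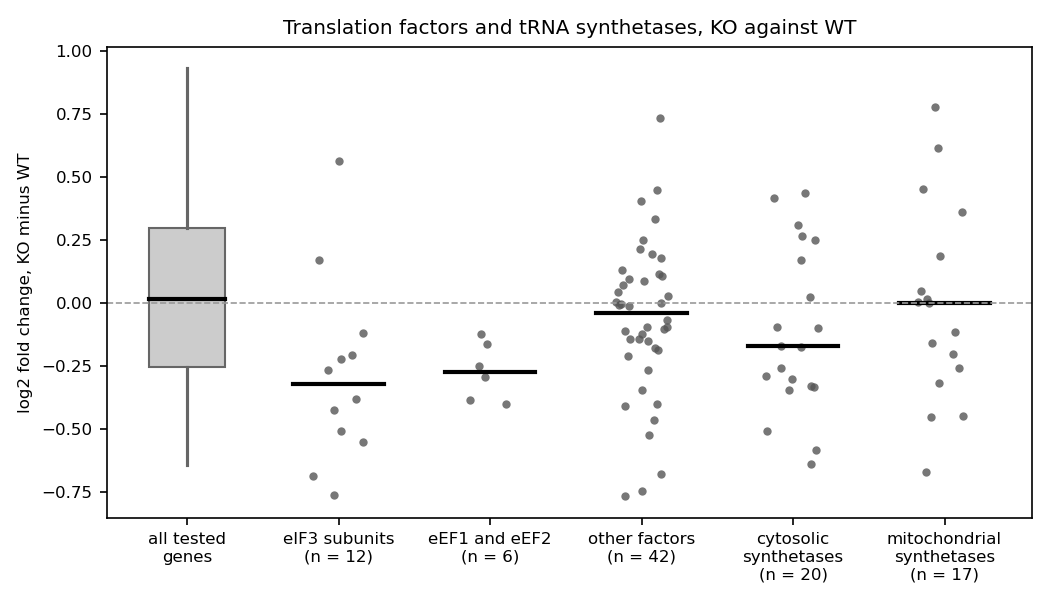
Log2 fold change of KO minus WT (edgeR) for each member (points) in 5 groups, with the group median as a bar; the box on the left gives the median, the quartiles and the 5th to 95th percentiles of all genes tested. The medians of the eIF3 subunits (-0.32) and of the eEF1 and eEF2 genes (-0.27) are below the other groups, and no single member passed the test.

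Levels between genes were compared as CPM per kb of exon, with exons merged over all annotated transcripts of a gene. They spanned from 0.715 for Eef2k to 4257 for Eef1a1 in WT. The medians in WT were 47.4 for factors, 35.5 for cytosolic synthetases and 6.67 for mitochondrial synthetases, and in KO they were 45.5, 33.6 and 7.81. Eef1a1 and Eef2 together took 44.5% to 50.5% of all factor counts in a library. Members of the whole set took 3.50% to 4.02% of all counts.

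**Figure D2:**
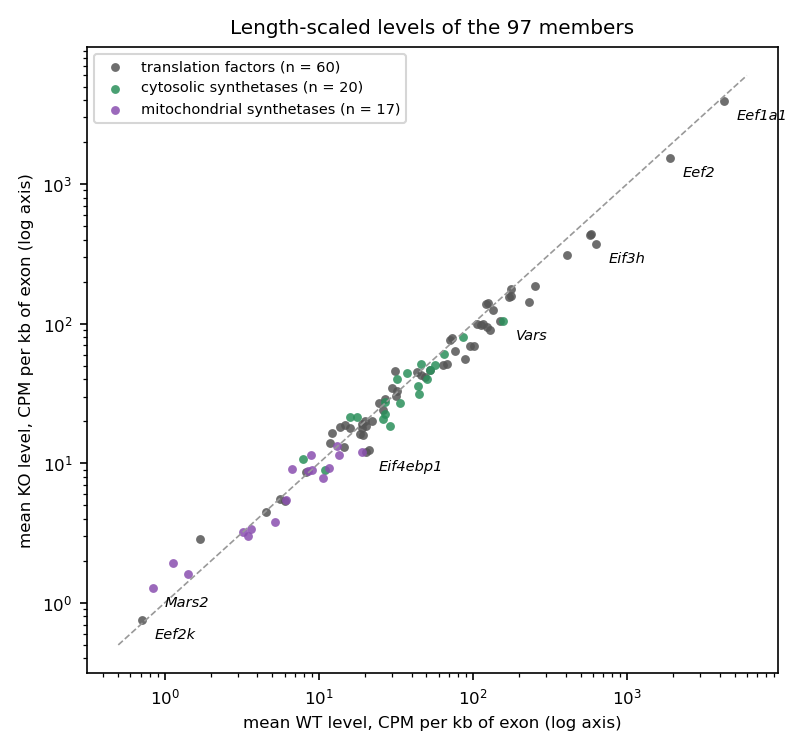
Mean KO level against mean WT level of each member, both as TMM-scaled CPM per kb of exon on log axes, with the line of equal levels dashed. Eef1a1 is highest (4257 in WT, 3911 in KO), and the mitochondrial synthetases lie between 0.835 and 19.2 in WT.

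The eIF3 complex is the largest initiation factor, and 12 of its subunit genes were in the table. Of these 10 had a log2 fold change below 0, with a median of -0.32. Eif3d, whose product can bind the cap itself (chr15:77958998-77970813, minus strand, mm10), was read at 497, 429 and 599.7 CPM in WT and 318, 399 and 322 CPM in KO. Every KO library lay below every WT library, by TMM scaling and as a share of the library total (log2 fold change -0.55, SE 0.21, edgeR adjusted p = 0.313). Eif3h, a subunit outside the core, was read at 691, 1092 and 1267 CPM in WT and 436, 805 and 556 CPM in KO (-0.76, SE 0.29, edgeR adjusted p = 0.313). Here KO 2 lay above WT 1, so the groups overlap. Eif3k, a small peripheral subunit, was read at 459, 602 and 809 CPM in WT and 341, 499 and 320.4 CPM in KO (-0.69, SE 0.26), with KO 2 again above WT 1.

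Eif3a, which encodes the largest core subunit, stood on the other side of 0. It was read at 243, 325 and 244 CPM in WT and 499, 370.2 and 332 CPM in KO, with all 3 KO libraries above all WT libraries (log2 fold change 0.56, SE 0.22, edgeR adjusted p = 0.338). Its annotated exons, merged over all transcripts, span 8731 bp, against 1612 bp for Eif3h. The log2 fold change of Eif3a after correction for length and base composition was 0.26. For Eif3h the value was then -0.65 and for Eif3d -0.56. The median deviation of eIF3 subunits from the WT mean, in log2 units, was -0.084, -0.070 and 0.13 in WT and -0.36, -0.045 and -0.39 in KO. KO 1 and KO 3 were thus low and KO 2 lay within the WT range. The 14 tested germinal centre B cell markers had medians of -0.032, -0.025 and -0.031 in WT and -0.41, -0.018 and -0.21 in KO on the same scale, also lowest in KO 1 and KO 3. The median deviations of the plasma cell markers were highest in those 2 libraries (0.50 and 0.32). Their summed level was not highest in KO 1, at 2898 CPM against 3245 CPM in KO 2. The part of either list in the result was not tested. Kdm1a was read at 81.9 CPM in KO 1, 33 CPM in KO 2 and 21.8 CPM in KO 3. The library labelled KO 1, nearest to WT in Kdm1a, was thus among those low in eIF3 subunits. The relation to Kdm1a was not tested either. The eIF3 median stayed between -0.48 and -0.20 over the scalings, the length and GC trend and the removal of any 1 library. The count below 0 was 10 of 12 under every scaling and 8 of 12 without WT 2.

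**Figure D3:**
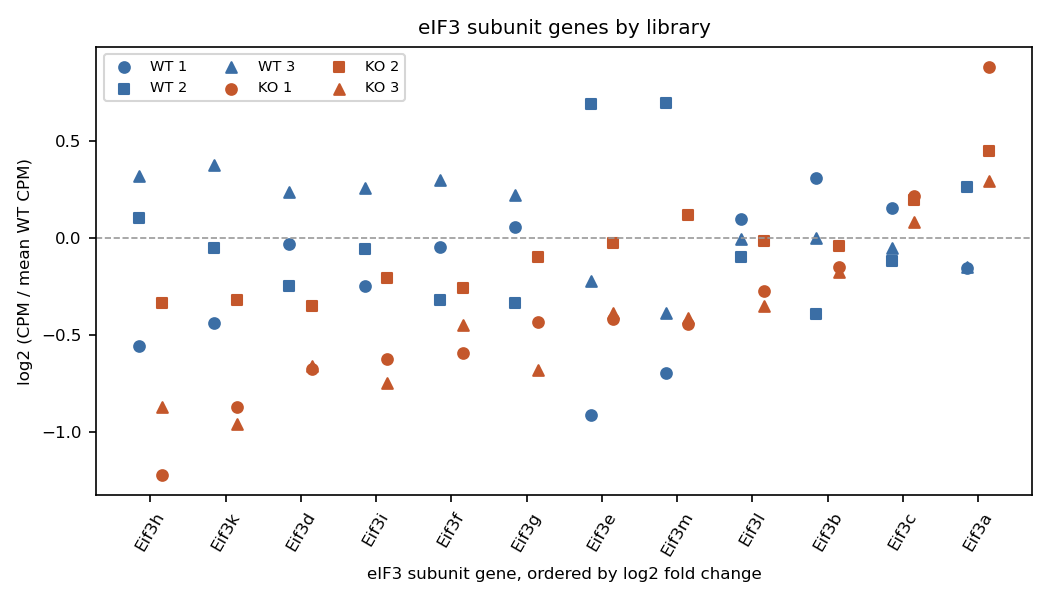
The 12 eIF3 subunit genes by library, as log2 of TMM-scaled CPM over the mean of the WT libraries; blue points are WT, orange points are KO, and marker shape gives the replicate number. KO 2 lies nearest to WT for most subunits, Eif3e and Eif3m are high in WT 2, and Eif3a is the subunit whose 3 KO libraries all lie above WT.

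Among factors that prepare the initiator transfer RNA, values lay close to WT. The 8 genes of eIF2 and eIF2B had a median of -0.100, and 6 of 8 were below 0. Eif2s1, the subunit that the stress kinases phosphorylate, was read at 149, 339 and 194 CPM in WT and 222, 231 and 182 CPM in KO. Eif2s2 was read at 65.4, 220.1 and 119 CPM in WT and 160.2, 149.7 and 96.2 CPM in KO. In both genes WT 2 stood far above the other WT libraries, and the KO values lay within the WT range. Eif2s3x, the X-linked subunit that binds the initiator transfer RNA, had a log2 fold change of 0.25 (SE 0.22); Xist was read at 202 to 949 CPM of the library total, so in every library. Eif2b5, the catalytic subunit of eIF2B, was read at 164, 156 and 209 CPM in WT and 125, 152 and 124 CPM in KO (-0.40, SE 0.21, edgeR adjusted p = 0.448), with no overlap by TMM scaling but overlap as a share of the library total. Of the eIF2 kinase genes kept here, Eif2ak1 (the haem-regulated kinase) had 109 ± 10.2 CPM in WT and 108 ± 8.56 CPM in KO (SD, n = 3 each), and Eif2ak4, the sensor of uncharged transfer RNA, had 61.8 ± 11.4 CPM in WT and 65 ± 6.00 CPM in KO (SD, n = 3 each). Neither differed by more than the spread between replicates. For Eif2s1 the log2 fold change of -0.10 turned to 0.31 without WT 2.

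The genes named Eif4, most of which encode proteins that act at the cap, had a median of 0.00 to 2 decimals with 8 of 15 below 0, and 1 inhibitor among them differed most. Eif4ebp1 encodes a repressor that holds the cap-binding protein eIF4E until mTORC1 phosphorylates it, and is also a known target of the stress factor ATF4. It lies at chr8:27260329-27276674, plus strand, and was read at 46.2, 38.1 and 49.6 CPM in WT and 20.7, 34.3 and 24.7 CPM in KO. All KO libraries were below all WT libraries, on both scales (-0.75, SE 0.25, edgeR adjusted p = 0.284). The value ran from -0.970 to -0.607 over 16 alternatives, with no adjusted p under 0.05. Of its relatives, Eif4ebp2 had 117 ± 28.2 CPM in WT and 107 ± 15.5 CPM in KO (SD, n = 3 each) and Eif4ebp3, at a low level, 11.1 ± 1.83 CPM in WT and 13.9 ± 3.06 CPM in KO (SD, n = 3 each). Whether the 3 genes differ in their response was not tested. Eif4e itself was read at 96.1, 163 and 85.4 CPM in WT and 113, 105 and 105 CPM in KO, and the scaffold gene Eif4g1 at 678, 436 and 485 CPM in WT and 649.9, 473 and 608 CPM in KO. WT 2 was the highest library for Eif4e and the lowest for Eif4g1, and neither set of groups parted. Eif4g3, a paralogous scaffold, had a log2 fold change of 0.45 (SE 0.22) with overlap between the groups.

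Of the helicase genes, Eif4a1, the main helicase of initiation, had 748 ± 92.5 CPM in WT and 677 ± 76.2 CPM in KO (SD, n = 3 each). Eif4a2, its close paralogue, had 233 ± 115 CPM in WT and 241 ± 60 CPM in KO (SD, n = 3 each), with WT 2 at 366 CPM and the other WT libraries at 163 and 171. Eif4a3 belongs to the exon junction complex, which marks spliced messenger RNA, and not to cap-dependent initiation. It was read at 308, 306 and 347 CPM in WT and 208, 262 and 197 CPM in KO, and its groups did not overlap on either scale (-0.53, SE 0.20, edgeR adjusted p = 0.313). The helicase cofactor genes Eif4b and Eif4h had 795 ± 45.4 CPM in WT and 794 ± 118 CPM in KO (SD, n = 3 each), and 595 ± 146 CPM in WT and 551 ± 51 CPM in KO (SD, n = 3 each), respectively.

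Of the factors that join or part the ribosomal subunits, Eif6 differed most. Its product keeps free large subunits from joining small ones and takes part in making them. Eif6 (chr2:155819832-155826925, minus strand) was read at 226, 189 and 305 CPM in WT and 136, 183 and 129.7 CPM in KO, with KO 2 just under WT 2. The groups did not overlap by TMM scaling and did as a share of the library total (log2 fold change -0.68, SE 0.24, edgeR adjusted p = 0.299). With the length and GC trend removed the value was -0.41. Eif5a, whose product carries the modified lysine hypusine and helps ribosomes past difficult stretches, was read at 1377, 1149 and 1569 CPM in WT and 1046, 1087 and 949 CPM in KO (-0.41, SE 0.20). Its KO libraries were also below all WT libraries by TMM scaling alone. Eif1, which guards start codon choice, had 369 ± 39.9 CPM in WT and 334 ± 58.1 CPM in KO (SD, n = 3 each). Eif1a had 57.3 ± 20 CPM in WT and 76 ± 4.63 CPM in KO (SD, n = 3 each), and its X-linked paralogue Eif1ax 167 ± 58.9 CPM in WT and 159.7 ± 10.4 CPM in KO (SD, n = 3 each). Eif5, the activator of eIF2's GTPase, was read at 214, 594 and 276 CPM in WT and 301, 316 and 335 CPM in KO, and Eif5b, which joins the subunits, had a log2 fold change of 0.18 (SE 0.27). The direction of Eif5 turned with WT 2: its log2 fold change was -0.19 in the full data and 0.37 without WT 2.

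All 6 genes of the eEF1 and eEF2 group had a log2 fold change below 0, from -0.40 to -0.12, and none of them parted the groups. The 6 take in Eef1e1, which is also counted among the genes of the multi-synthetase complex below. Eef1a1, the most abundant member, was read at 8298, 13602 and 9937 CPM in WT and 8452, 12082 and 8719.6 CPM in KO. Eef2, the translocase, was read at 6595, 4976 and 7322 CPM in WT and 4213, 6168 and 5015 CPM in KO (-0.30, SE 0.25). All 3 KO libraries lay within the WT range for Eef1a1, and for Eef2 KO 1 alone lay below it. Of the exchange factor genes of eEF1A, Eef1b2 had 1481 ± 264 CPM in WT and 1121 ± 255 CPM in KO (SD, n = 3 each) and Eef1g 1062 ± 265 CPM in WT and 812 ± 144 CPM in KO (SD, n = 3 each). The median deviations of the 6 by library were -0.20, 0.033 and 0.12 in WT and -0.43, -0.025 and -0.39 in KO, low in KO 1 and KO 3. By median deviation the plasma cell markers were highest in those 2 libraries, but by summed level KO 1 (2898 CPM) lay below KO 2 (3245 CPM). The part of these markers in the low values was not tested. All 6 stayed below 0 under every scaling, but without WT 2 only 4 did, and Eef1a1 was then at 0.10. Reads of Eef1a1 can also match its many processed pseudogenes, and their treatment in the counting is not stated.

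Eef1akmt1, which encodes a methyltransferase for a lysine of eEF1A, was read at 16.8, 19.2 and 24 CPM in WT and 8.28, 13.7 and 13.2 CPM in KO. The groups did not overlap on either scale, and -0.77 (SE 0.30, edgeR adjusted p = 0.322) was the lowest log2 fold change of all members. Eef2k, the kinase that blocks eEF2, was barely expressed, at 2.63, 3.91 and 9.35 CPM in WT and 3.49, 2.54 and 10.7 CPM in KO. It was highest in WT 3 and KO 3, the 2 libraries with the most macrophage transcripts; their part in this was not tested. The release factor genes had 262 ± 99.2 CPM in WT and 283 ± 15.8 CPM in KO (SD, n = 3 each) for Etf1 and 162 ± 21.7 CPM in WT and 188 ± 33.3 CPM in KO (SD, n = 3 each) for Gspt1, within the spread between replicates.

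Many messenger RNAs of elongation factors and of some eIF3 subunits begin with a terminal oligopyrimidine tract (TOP), a C followed by a run of C and T, through which mTORC1 controls their translation. Of 13 members listed as such, 11 were below 0, with a median of -0.27, against -0.10 for the 47 other factors. Over 3 other scalings, the length and GC trend and the removal of each library, the median of the 13 ran from -0.40 without KO 2 to -0.14 by library size alone, and without WT 2 only 8 of 13 were below 0. Promoter sequences from RefSeq (GRCm38.p6, 250 bases before to 50 after each start) were at hand for 72 members in 88 windows. A gene with several starts has several windows, so the 61 factor windows stand for 46 genes. A C followed by 4 or more pyrimidines lay within 3 bases of the start in 10 of 61 factor windows, 16.4%, and in 11.5% of all 32851 windows. At the start base itself the shares were 3.28% and 2.51%. Of the 13 listed members, Eef1d, Eef1g, Eif3e and Eif3h had no window. Eef1b2, Eef2, Eif3a, Eif3k, Eif4b and Eif4a2 had windows but no such run within 3 bases. Only Eef1a1, Eif3f and Eif3l of the list had the run. It was placed by the RefSeq start alone. Whether transcripts begin there, and whether this run is the TOP tract of the messenger RNA, was not tested. The 2 stretches below, from genes of this list, show it in capitals, starting 3 bases before the RefSeq start in Eef1a1 and 2 bases before it in Eif3f:
Eef1a1 (chr9:78481707-78481736): ggctccgccCTCTTCCCgagggtgggggag
Eif3f (chr7:108934403-108934432): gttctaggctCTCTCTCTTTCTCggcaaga
Both are written 5′ to 3′ on the strand of the gene. Eif3f had 728 ± 157 CPM in WT and 541 ± 63.5 CPM in KO (SD, n = 3 each), and the groups overlapped.

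The E-box CACGTG, bound by several basic helix-loop-helix factors, reads the same on both strands. It was found in 14 of 61 factor windows (23%), 4 of 12 windows of cytosolic synthetases (33.3%) and 1 of 15 of mitochondrial synthetases (6.67%), against 7.15% of all windows. The 61 factor windows stand for 46 genes, so 1 gene can be counted more than once. The median G and C content was 62.7% in factor windows, 56.3% in cytosolic and 58.0% in mitochondrial synthetase windows, and 52.7% in all windows. Its part in these shares was not tested. Members with the same E-box lay on either side of 0. The stretches of Eif3a and Eif3k are shown because both hold it within 50 bases of the start and their log2 fold changes were 0.56 and -0.69:
Eif3a (chr19:60790654-60790683): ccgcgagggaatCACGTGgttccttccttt
Eif3k (chr7:28981915-28981944): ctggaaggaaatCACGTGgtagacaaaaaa
The box is in capitals. It starts 22 bases after the start base in Eif3a and 44 bases before it in Eif3k.

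Among the cytosolic synthetases, genes for the 2 subunits of a single enzyme gave unequal values. Phenylalanyl-tRNA synthetase is built from the products of Farsa and Farsb. Farsa (chr8:84856989-84869257, plus strand) was read at 137, 118 and 139 CPM in WT and 79.6, 94.9 and 77.9 CPM in KO. Every KO library was below every WT library on both scales, at a log2 fold change of -0.64 (SE 0.20), with an adjusted p of 0.272 from edgeR. It ran from -0.732 to -0.531 over the 16 alternatives, and its lowest adjusted p among them was 0.0733. Farsb was read at 121, 189 and 138 CPM in WT and 142, 139 and 117 CPM in KO, with overlap between the groups (-0.17, SE 0.22). The difference between the 2 subunits was not tested.

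Vars, the valyl enzyme (chr17:35000987-35016322, plus strand) and the most abundant synthetase per length (157 CPM per kb in WT and 105 in KO), was read at 969.9, 667 and 1001 CPM in WT and 623, 598 and 538 CPM in KO (-0.58, SE 0.22, edgeR adjusted p = 0.312). Sars, the seryl enzyme, was read at 209, 198 and 281 CPM in WT and 146, 194 and 144 CPM in KO (-0.51, SE 0.22, edgeR adjusted p = 0.376). For both genes the KO libraries lay below WT by TMM scaling and overlapped WT as a share of the library total. Mars, the methionyl enzyme, had 151 ± 18.3 CPM in WT and 123 ± 6.06 CPM in KO (SD, n = 3 each), without overlap by TMM scaling. Wars, the tryptophanyl enzyme, which interferon gamma induces in many cells, had 116 ± 19.7 CPM in WT and 92.6 ± 2.82 CPM in KO (SD, n = 3 each), and its groups overlapped. Aars had 249 ± 59 CPM in WT and 208 ± 9.52 CPM in KO (SD, n = 3 each) and Gars 267 ± 15.1 CPM in WT and 250.1 ± 31.4 CPM in KO (SD, n = 3 each), and in both the means differed by less than the larger of the 2 SDs.

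Eprs and Lars pointed the other way. Eprs encodes the fused enzyme for glutamate and proline and was read at 141, 162 and 129 CPM in WT and 237, 181 and 166 CPM in KO; Lars, the leucyl enzyme, was read at 82.5, 93.8 and 80.1 CPM in WT and 134, 98.5 and 110.0 CPM in KO. All KO libraries lay above all WT libraries in both, on both scales (log2 fold changes 0.44 (SE 0.21, edgeR adjusted p = 0.429) and 0.42 (SE 0.20, edgeR adjusted p = 0.424)). Eprs has 18102 bp of annotated exon, and with the length and GC trend removed its log2 fold change was 0.0061; for Lars it was 0.23. Both enzymes sit in the multi-synthetase complex. Of the 11 genes of that complex, 7 were below 0 and 4 above, with a median of -0.10, which ran from -0.27 with the length and GC trend removed to 0.045 without WT 2. It was also above 0 by library size alone (0.012) and was -0.21 without KO 2. Its scaffold gene Aimp2 was read at 64.9, 69.4 and 93.5 CPM in WT and 45.6, 53.9 and 43.3 CPM in KO (-0.67, SE 0.22, edgeR adjusted p = 0.284), with every KO library below WT, while Iars, the isoleucyl enzyme of the same complex, had 142 ± 7.20 CPM in WT and 144 ± 18.2 CPM in KO (SD, n = 3 each).

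**Figure D4:**
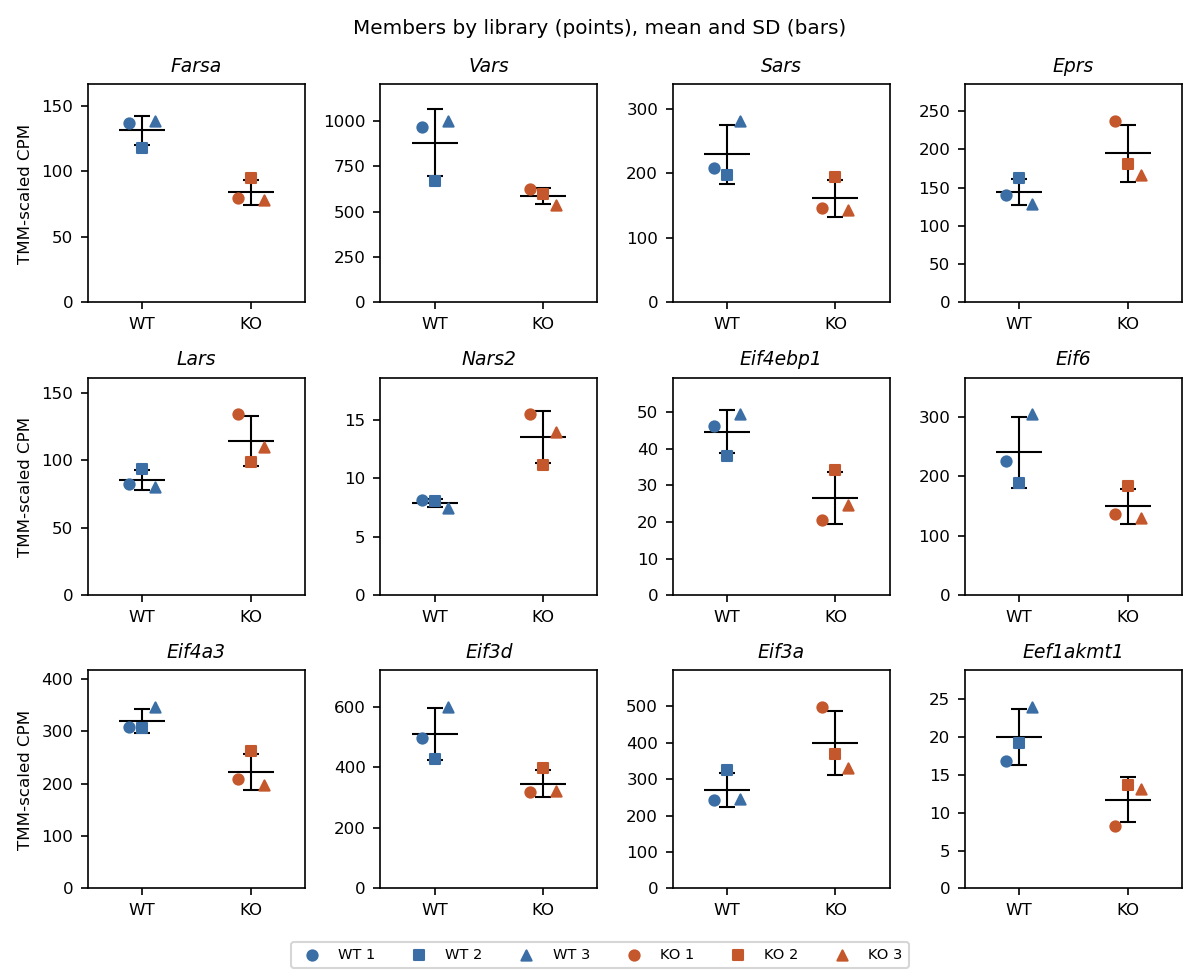
TMM-scaled CPM of 12 members in each library, with WT in blue and KO in orange, marker shape giving the replicate number, and bars giving the mean and SD of each group (n = 3). Each panel starts at 0. The 12 were picked from the members whose groups do not overlap by TMM scaling (of 97, 14 below WT and 7 above). The groups did not overlap in 18% of all genes tested. Eprs, Lars, Nars2 and Eif3a are the 4 that are higher in KO. As a share of the library total, the groups of Vars, Sars and Eif6 overlap.

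Amino acid shortage raises many cytosolic synthetases through ATF4, which binds composite elements with the letters TGATGNAA (searched on both strands, so that the capitals below are the reverse complement in every gene but Yars). These letters were present in 5 of 12 cytosolic synthetase windows (41.7%), 2 of 61 factor windows (3.28%) and 0 of 15 mitochondrial synthetase windows, against 3.97% of all windows. Of the 5 synthetase windows, 4 are shown with the match in capitals, 5′ to 3′ on the strand of the gene:
Gars (chr6:55037960-55037989): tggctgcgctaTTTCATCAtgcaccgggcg
Iars (chr13:49682126-49682155): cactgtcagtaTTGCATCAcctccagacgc
Tars (chr15:11399655-11399684): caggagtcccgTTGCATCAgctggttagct
Yars (chr4:129189895-129189924): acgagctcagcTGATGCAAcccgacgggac
The match begins 30 and 15 bases before the start base in Gars and Tars, and 7 and 3 bases after it in Iars and Yars. The log2 fold change was -0.097 for Gars, 0.023 for Iars, 0.27 for Tars and -0.33 for Yars, and none passed the test. The 11 synthetases listed as ATF4 targets had a median of -0.26 with 7 below 0, and the 9 other cytosolic enzymes -0.17 with 6 below 0. For the 11 the median ran from -0.39 without WT 2 to -0.090 without WT 1.

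The 17 mitochondrial synthetases split evenly about 0 by TMM scaling, with 9 above and 8 below. With DESeq2 size factors, and with the length and GC trend removed, 6 were above and 11 below. Without WT 2 or without KO 2, 7 were above and 10 below. By library size alone 10 were above and 7 below. Nars2, the asparaginyl enzyme of mitochondria, had the highest log2 fold change of all members. It was read at 8.14, 8.01 and 7.48 CPM in WT and 15.5, 11.2 and 13.9 CPM in KO (0.78, SE 0.30, edgeR adjusted p = 0.319), without overlap on either scale, from 24 to 41 counts per library in WT and 158 to 204 in KO. Mars2 had 9.43 ± 3.94 CPM in WT and 14.4 ± 2.56 CPM in KO (SD, n = 3 each) and Yars2 21 ± 6.98 CPM in WT and 28.8 ± 4.12 CPM in KO (SD, n = 3 each), both with overlap. Mars2 was at 0.10 with the length and GC trend removed. Cars2 had 37.5 ± 9.89 CPM in WT and 27.3 ± 3.70 CPM in KO (SD, n = 3 each). Lars2, the leucyl enzyme, was read at 124, 370.0 and 144 CPM in WT and 139, 109 and 153 CPM in KO. Its log2 fold change of -0.67 rested on WT 2, and without that library it was -0.0060.

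Other genes of translation and its control were counted from lists, and 0 of their tested members passed, against 0.0824% of all genes. ATF4 and the amino acid response had 15 of 19 tested genes below 0 (median -0.22), against 48.7% of all genes. Of the 19, 4 (21.1%) were lower at an unadjusted p under 0.05 (edgeR), against 5.5% of all genes. Asns, the asparagine synthetase, was read at 57.8, 51.2 and 50.5 CPM in WT and 27.3, 42.9 and 25 CPM in KO (-0.74, SE 0.25, edgeR adjusted p = 0.284), and Psat1, of serine synthesis, at 311, 397 and 387 CPM in WT and 244, 277 and 214 CPM in KO (-0.57, SE 0.20, edgeR adjusted p = 0.299). Shmt2, a mitochondrial serine enzyme, had a log2 fold change of -0.65 (SE 0.23). In these 3 genes, 15.8% of the 19, every KO library was below every WT library, against 7.95% of all genes. Atf4 itself had 343 ± 30.9 CPM in WT and 335 ± 68.5 CPM in KO (SD, n = 3 each). Over the same alternatives as for the TOP list, the median ran from -0.30 without KO 2 to -0.035 with the length and GC trend removed. In that last fit 12 of 19 were below 0 and the median of all genes tested was -0.038.

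Genes of the mTORC1 pathway were balanced, with 8 of 15 above 0 and a median of 0.021. The median ran from -0.14 without WT 2 to 0.14 by library size alone, and was also below 0 without WT 3, KO 1 or KO 3 (-0.021, -0.081 and -0.039). Akt1s1, an inhibitory subunit of the complex, had 21.2 ± 6.41 CPM in WT and 14.6 ± 1.14 CPM in KO (SD, n = 3 each), Mlst8, a core subunit, 30.5 ± 5.67 CPM in WT and 23.4 ± 0.897 CPM in KO (SD, n = 3 each), and Larp4, an RNA-binding protein gene, 52.2 ± 15.9 CPM in WT and 72 ± 12.2 CPM in KO (SD, n = 3 each). Of the mitochondrial translation factors 7 of 10 were above 0 (median 0.15, running from 0.028 with the length and GC trend removed to 0.26 by library size alone, and 0.056 to 0.084 without WT 1, WT 3, KO 1 or KO 2). Tufm, the mitochondrial counterpart of eEF1A, was on the other side at 107, 87.4 and 119.7 CPM in WT and 71.4, 82.9 and 68.7 CPM in KO (-0.49, SE 0.20, edgeR adjusted p = 0.351), and so was Mrrf (-0.40, SE 0.23), while Gfm1 had 0.32 (SE 0.20). Other cytosolic cofactors divided 8 to 8 over 16 tested genes. Ddx3x, a helicase gene on the X chromosome, had 0.57 (SE 0.30), Dhps, which makes hypusine on eIF5A, -0.38 (SE 0.22), and the ribosome rescue gene Hbs1l 0.36 (SE 0.21). Of 12 genes near the synthetases 8 were above 0, among them the transfer RNA exporter Xpot (0.42, SE 0.21) and Tarsl2, a threonyl enzyme (0.30, SE 0.24).

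Library WT 2 stood apart in a way that follows base composition. Members with AU-rich transcripts were high in it, such as Eif3e at 272, 827 and 439 CPM in WT and 384, 504 and 392 CPM in KO, and members with GC-rich transcripts were low, such as Vars2 at 38.9, 20.3 and 40.8 CPM in WT and 30.6, 27.5 and 31.1 CPM in KO. The log2 difference between WT 2 and the mean of WT 1 and WT 3 had a Spearman rho of -0.79 with transcript GC content over the 97 members, and -0.73 over 10747 genes. The log2 fold change between KO and WT had a rho of -0.49 with GC content and 0.34 with exon length over the members, and -0.37 and 0.34 over all genes. These are descriptions across genes of the same libraries, and genes are not independent replicates. WT 2 was the highest WT library for 37 members and the lowest for 42. KO 2 was the highest KO library for 54 members and KO 3 the lowest for 47. With the length and GC trend removed, 72 of 97 members were below 0, and 0 passed. The median of all genes tested was then -0.038, and that of the members -0.13, against -0.12 before. At an unadjusted p under 0.05, 0 were then higher and 11 lower.

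**Figure D5:**
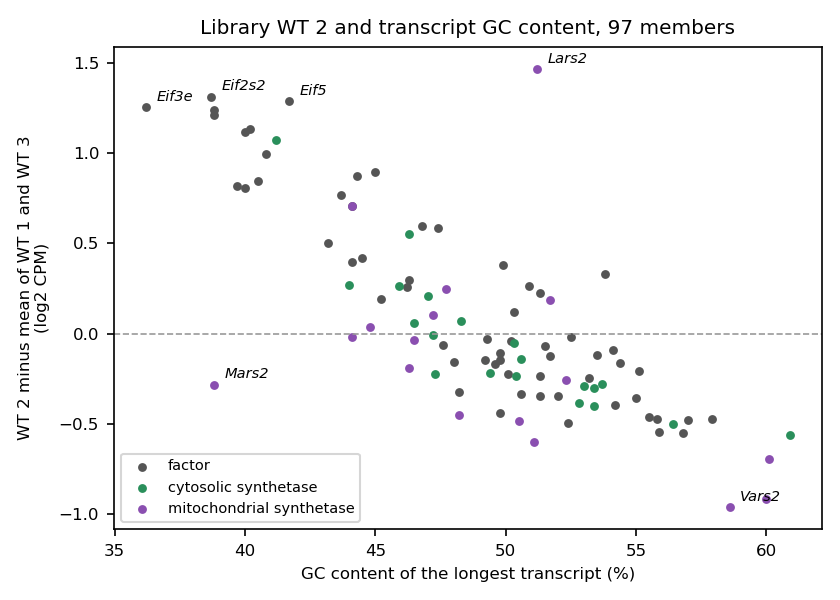
Log2 CPM in WT 2 minus the mean of WT 1 and WT 3 for each member, against the GC content of its longest annotated transcript in percent. Members under 42% GC lie mostly above 0.5 and those over 55% mostly near or below -0.4; Lars2, at 51.2% GC and 1.47, and Mars2, at 38.8% GC and -0.283, lie off this trend.

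Some counts are less certain because genes share sequence or space. Exons of Eif3d overlap those of an unnamed gene on the other strand over 2151 bp, those of Eif5b overlap Rev1 over 1643 bp, and those of Aars overlap Exosc6 and another gene over 1403 bp in all. Of 744 bp of Eif4ebp3, 501 are shared with another annotated gene on the same strand. Mars and Ddit3, on opposite strands, overlap over 68 bp, and Hars and Hars2 over 195 bp. Exons of Iars2 overlap Rab3gap2 and another gene on the other strand over 2148 bp in all. Those of Eif2ak1 overlap Aimp2 and Ankrd61 on the other strand over 659 bp in all. Whether the counting used strand is not stated. Eif1 and Eif1b, Eif1a and Eif1ax, and Eif4a1 and Eif4a2 are close paralogues, between which short reads can be divided.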

How the data were processed

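The values are raw counts, which the authors deposited as a table with a gene symbol per line and a library per column. The submitters' processing notes list mm10 and the tools CASAVA, STAR (2.5.2) and featureCounts (1.5.2). The annotation, strand setting and handling of multi-mapping reads are not stated. Groups and replicate numbers came from the sample labels, and members, lists and tests were chosen with earlier results of these data known.

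All genes were tested together, two-sided and without covariates, by the quasi-likelihood test of edgeR 4.0.16 (R 4.3.3), with TMM factors, robust fitting and the filter filterByExpr, and adjusted by Benjamini-Hochberg at 0.05; SEs are those implied by the F statistic. The rule for named members took a fixed set by role, up to 5 per direction and class by log2 fold change with mean log2 CPM of at least 3, and up to 6 without overlap by p; from each other list, 3 genes by p. Members named with their levels or fold changes beyond it (Eif3e, Eif3f, Vars2, Tars, Yars and Atf4, Eif3m in a caption, and those of the closing observations) were chosen after their values were seen. Coordinates, exon lengths and GC content came from GENCODE vM21 (GRCm38), which held all 97 members and 98.0% of the table by symbol. Of the 97 members, 25 are not in the promoter table, among them Cars, Eef1akmt1, Eef1d, Eef1g, Eif1a, Eif2b3, Eif3e, Eif3h, Eif3i, Eif4e3, Eif4ebp1, Eif4ebp3, Eif4g2, Eif6, Etf1, Hars, Hars2, Lars, Mars, Nars, Pars2, Rars, Vars and Wars. Some items are not reported here.

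As a share of the library total, before TMM, 1 read stood for 0.181 to 0.295 (WT libraries) or 0.0698 to 0.0811 CPM (KO libraries), and the smallest count of a member in a library was 8. Tested on simulated data at these depths and spread (10747 genes, 200 changed), the recovery by edgeR was 26.8% at 2-fold and 79.2% at 4-fold, and no member's log2 fold change reached 1 in size. DESeq2 1.42.0 recovered 38.1% and 86.5%, and limma-voom (limma 3.58.1) 11.3% and 75.0%. Unchanged genes made up 9.73% of the calls of edgeR, 17.8% of those of DESeq2 and 7.78% of those of limma-voom. Alternatives were 3 other scalings, 2 other filters, DESeq2, limma-voom, a replicate block, removal of each library, thinning to equal depth (11 draws) and removal of a spline trend on length and GC content. Libraries of a group did not look like repeats of 1 library (chi-square per degree of freedom 14.4 to 50.9). The labels give 1 mouse per library, so p-values measure spread between mice.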

Additional observations from a re-analysis of the deposited data

How the results depend on the processing

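No member passed under any of the 16 alternatives, and 55 of 97 kept the sign of their log2 fold change in all of them. Over all genes, 8 were called higher and 1 lower. These counts were 8 and 2 with DESeq2 size factors, 10 and 2 with upper-quartile scaling, 16 and 2 by library size alone, 81 and 12 with no filter, 11 and 2 with at least 5 CPM in 3 libraries, 88 and 34 with DESeq2, 2 and 0 with limma-voom, 24 and 4 with the length and GC trend removed, and 1 to 21 and 0 to 5 with 1 library left out. The replicate block gave 20 higher and 1 lower. Deviations of same-numbered libraries correlated at 0.34, -0.052 and 0.44, and 4 of 6 libraries correlated best with their own number. These values do not settle whether the numbers pair the mice, and the main test took the mice as unpaired.

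By library size alone the medians were -0.0125 for factors, 0.00563 for all synthetases, -0.0452 for cytosolic and 0.111 for mitochondrial ones; with 1 library left out they ran from -0.225 to -0.0523, -0.166 to -0.0898, -0.223 to -0.11 and -0.105 to 0.00948. Kdm1a ran from -1.93 to -0.878 with 1 library left out. Of 68 named genes, 20 changed sign somewhere. Log2 fold changes with the other sign were Eif2s2 at -0.0359 and Iars at -0.0138 with DESeq2 size factors; Eif2ak1 at 0.00803 and Eif4b at 0.0205 with upper-quartile scaling; Eif1ax at 0.059, Eif2s1 at 0.0276, Eif2ak1 at 0.105, Eif4e at 0.033, Eif4b at 0.112 and Gars at 0.0146 by library size alone. Further ones were Eif4b at 0.00546 with no filter; Eif4b at 0.008 with at least 5 CPM in 3 libraries; Eif2s2 at -0.0348 and Iars at -0.014 with the DESeq2 test, and Eef2k at -0.00847 with the replicate block and Eif2s2 at -0.128, Eif2ak4 at -0.0757, Eif4a2 at -0.117, Eif4h at 0.0281, Eif5b at -0.135, Eef2k at -0.0824, Etf1 at -0.0386, Gspt1 at -0.0236 and Iars at -0.127 with the length and GC trend removed. With 1 library left out, such genes ran over these ranges: Eef1a1 -0.3 to 0.0966, Eef2k -0.82 to 0.757, Eif1ax -0.215 to 0.263, Eif2ak1 -0.0853 to 0.0482, Eif2ak4 -0.0623 to 0.206, Eif2s1 -0.339 to 0.306, Eif2s2 -0.336 to 0.553, Eif4a2 -0.164 to 0.528, Eif4b -0.114 to 0.0886, Eif4e -0.273 to 0.245, Eif4ebp2 -0.279 to 0.05, Eif4g1 -0.0135 to 0.303, Eif4h -0.254 to 0.0782, Eif5 -0.457 to 0.374, Eif5b -0.0548 to 0.479, Etf1 -0.0854 to 0.459, Farsb -0.318 to 0.0358, Iars -0.0451 to 0.13. The cause was not tested. In the simulation 17.8% of DESeq2's calls were unchanged genes, against 9.73% for edgeR.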

Other observations

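Paralogue pairs within the set differed in level. The values of Eif1b, Eif5a2, Eif4e2 and Eif4e3 were singled out after they were seen. Eif1b, a close relative of Eif1, was read at 94, 125 and 106 CPM in WT and 66.5, 94 and 74.6 CPM in KO, below WT in all 3 KO libraries on both scales, with KO 2 and WT 1 equal to 3 digits (-0.47, SE 0.21, edgeR adjusted p = 0.397), while Eif1 had a log2 fold change of -0.14 (SE 0.20). Per kb of exon Eif1 was the more abundant, at 176 CPM per kb in WT and 159 in KO, against 96.3 and 69.7 for Eif1b. Eif5a2, the minor eIF5A gene, was read at 5.57 CPM per kb in WT and 5.57 in KO, against 574 and 432 for Eif5a. Eif4e2, whose product binds the cap and represses translation, had 139.6 ± 2.25 CPM in WT and 121 ± 13.8 CPM in KO (SD, n = 3 each). Eif4e3, a further cap-binding relative, was read at 2.10, 6.06 and 4.68 CPM in WT and 7.06, 6.42 and 8.08 CPM in KO, low in every library and above WT in all 3 KO libraries (log2 fold change 0.74, SE 0.43, edgeR adjusted p = 0.501). Its 8 counts in WT 1 are the smallest count of any member.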
